A study of Mus musculus with 10 samples.

Results

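Type I interferon stimulated genes were examined in regulatory T cells (Tregs, the Foxp3-expressing CD4 T cells that restrain immune responses) sorted from mouse colon. The 34 members were rows of the count table whose gene name is on a list of interferon stimulated genes, and all 34 were found among 54532 genes. They were picked by name. The cells had been sorted on the surface proteins CD45, CD3, CD4 and CD25 together with GFP, and their transcripts were amplified with Smart-seq2, which copies whole mRNAs from small samples. The Tumor group (5 libraries) came from colon tumours of Apc Min/+ mice carrying Foxp3 DTR. The WT group (5 libraries) came from the colon of Foxp3 DTR mice without the Apc allele. Apc Min is a germline truncating allele of an inhibitor of Wnt signalling, present in all cells of the mouse, and Foxp3 DTR places a diphtheria toxin receptor under control of Foxp3, so both groups carry the latter. All mice were C57BL/6 males aged 16 weeks. The labels do not say whether libraries of one group are from different mice, and p-values then cover only library-to-library spread, which may be technical.

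Type I interferons (interferon alpha and beta) bind the receptor chains Ifnar1 and Ifnar2 and act through the kinases Jak1 and Tyk2. A transcription factor complex that includes Irf9 then binds interferon-stimulated response elements (ISRE) in the promoters of these genes. Many of the products degrade viral RNA, sense foreign nucleic acid or block virus entry and release, and many of the same genes also respond to interferon gamma, whose receptor acts through GAS elements. Some members are expressed in resting lymphocytes, while others are near silent until interferon is present.

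The libraries differed in composition. Tumor libraries held 3054435 to 7747699 counts and WT libraries 1676229 to 8412887. The single gene Gm10800 took 9.92, 22.3 and 26.5% of the reads in WT replicates 3, 4 and 5, and at most 5.77% in any other library, and its part in the results was not tested. In CPM (read counts scaled to the library total), the 7 sort marker genes summed to 3195 to 4271 for Tumor and 129 to 1296 for WT, with 208 to 910 Foxp3 reads against 14 to 109. The 16 epithelial markers summed to 27333 and 35802 CPM in WT replicates 1 and 2, to 181 to 307 in the other 3 WT libraries and to 58.9 to 5668 for Tumor. The 12 macrophage and monocyte markers came to 1341 to 6070 CPM for Tumor and 67.7 to 171 for WT. In the edgeR test described below, 5 of these 12 and 3 of the 7 sort markers were called higher. Of the 16 epithelial markers 0 were, and of all tested genes 1.37%. No gene of these marker lists was at 0 in every library of a group, though C1qa, Apoe and Itgam were at 0 in WT replicate 3. The part of other cells' RNA in the results below was not tested. Fewer cells of a type and less RNA per cell cannot be told apart in such libraries.

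Of the 34 interferon stimulated genes 1, the exonuclease gene Isg20, rose in Tumor on the scaling used for the test, though its value was negative when scaled to T cell genes, and none fell. Ly6e, Ifi27l2a, Isg15 and Bst2 had Tumor levels above every WT library without passing the test. Values were negative for 14 members, among them the OAS genes, Mx1, Rsad2 and Cmpk2. For 10 of these 14 no library exceeded 5 times the read density of olfactory and vomeronasal receptor genes, a background given below. The test was edgeR's quasi-likelihood test with Benjamini-Hochberg adjustment over 21414 genes, all 34 members among them, on counts scaled by the trimmed mean of M values (TMM). It called 340 genes (1.59% of those tested), 293 higher (1.37%) and 47 lower (0.219%). No member was lower by this test, with 2 lower at an unadjusted p below 0.05 and 1 lower by DESeq2. The log2 fold changes of members (Tumor minus WT) ran from -2.27 to 3.05 with a median of 0.58, against -0.20 over all tested genes, and 20 of the 34 were positive. At an unadjusted p below 0.05, 11 members were higher and 2 lower, where 7.75% and 8.31% of all genes were. The groups did not overlap for 5 members (5.94% of all genes did not), namely Ly6e, Isg15, Ifi27l2a, Isg20 and Bst2, with Tumor on top each time. Separation with Tumor on top held for 4.38% of all genes, and the opposite for 1.57% of genes and no member.

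Other ways of fitting changed how many members were called. DESeq2 called 6 members higher and 1 lower, where it called 3.18% and 4.53% of genes. Limma voom called 2 higher (2.12% of genes), as did edgeR without composition factors (1.04%) and with at least 10 CPM in 5 libraries (2.1%), and edgeR with no filter called 4 (0.934%). With a replicate block edgeR called none (0.644% of genes, 12 members higher at an unadjusted p below 0.05). Leaving out WT replicates 1 and 2 gave 6 members higher (6.4%), and leaving out WT replicate 2 alone gave 4 (1.49%). Leaving out WT replicates 3, 4 and 5 gave 5 higher and 1 lower (2.32% and 2.09%).

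These directions depend on what the libraries are scaled to. With each library scaled to the geometric mean of 14 pan-T genes (Cd3d, Cd3e, Lck, Zap70 and others), the median over all tested genes moved from -0.20 to -3.65, and 90.9% of genes were called lower and 0.0887% higher. All 20 positive members turned negative there, 27 of the 34 were called lower and none higher by edgeR (0 at an unadjusted p below 0.05 as well), and the member median was -2.95. Relative to the median of all genes the members stood 0.77 log2 units higher on TMM and 0.70 higher on pan-T scaling. The pan-T genes themselves had a median of 2.83 on TMM, and 7 of the 14 were called higher there (1.37% of all genes were). Every direction given below is on TMM, and each positive member value turns negative on pan-T scaling. Values with ± are log2 fold changes with their SE, or CPM with the SD over 5 libraries, and library values are listed in the order of replicates 1 to 5.

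**Figure D1:**
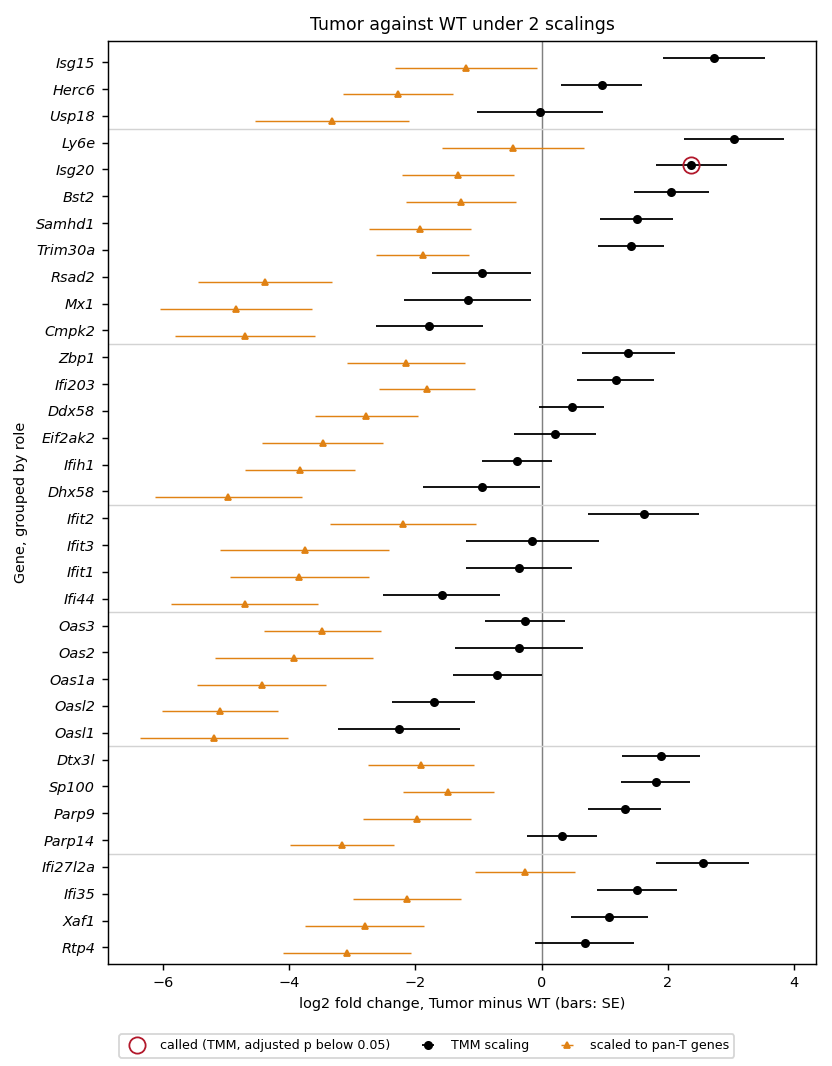
Log2 fold changes (Tumor minus WT, horizontal axis) of the 34 genes, grouped by role, with standard errors, on TMM scaling (black circles) and scaled to pan-T genes (orange triangles). On TMM the values run from -2.27 to 3.05 with Isg20 called, and all 34 lie below 0 on pan-T scaling.

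Levels per length spanned a wide range, and a pair of genes, Ly6e and Ifi27l2a, made up most of the member reads in Tumor but not in WT. In Tumor, mean TMM CPM per kilobase of gene length went from 1.06 (Ifi44) to 1252 (Ifi27l2a), with a median of 6.36 over members. In WT it went from 0.861 (Ifit2) to 213 (Ifi27l2a), with a median of 4.86. In order of the mean over all 10 libraries, the 5 highest were Ifi27l2a, Ly6e, Bst2, Ifi35 and Trim30a. Ly6e and Ifi27l2a held 62.4 to 76.0% of all member reads in the Tumor libraries and 15.6 to 48.6% in the WT libraries, and the groups did not overlap. All members together summed to 2609 to 6027 TMM CPM in Tumor and 786 to 1582 in WT. Without these 2 genes the other 32 summed to 896 to 1726 in Tumor and 664 to 914 in WT, so the lowest Tumor library (replicate 5) then lay below the highest WT library.

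**Figure D2:**
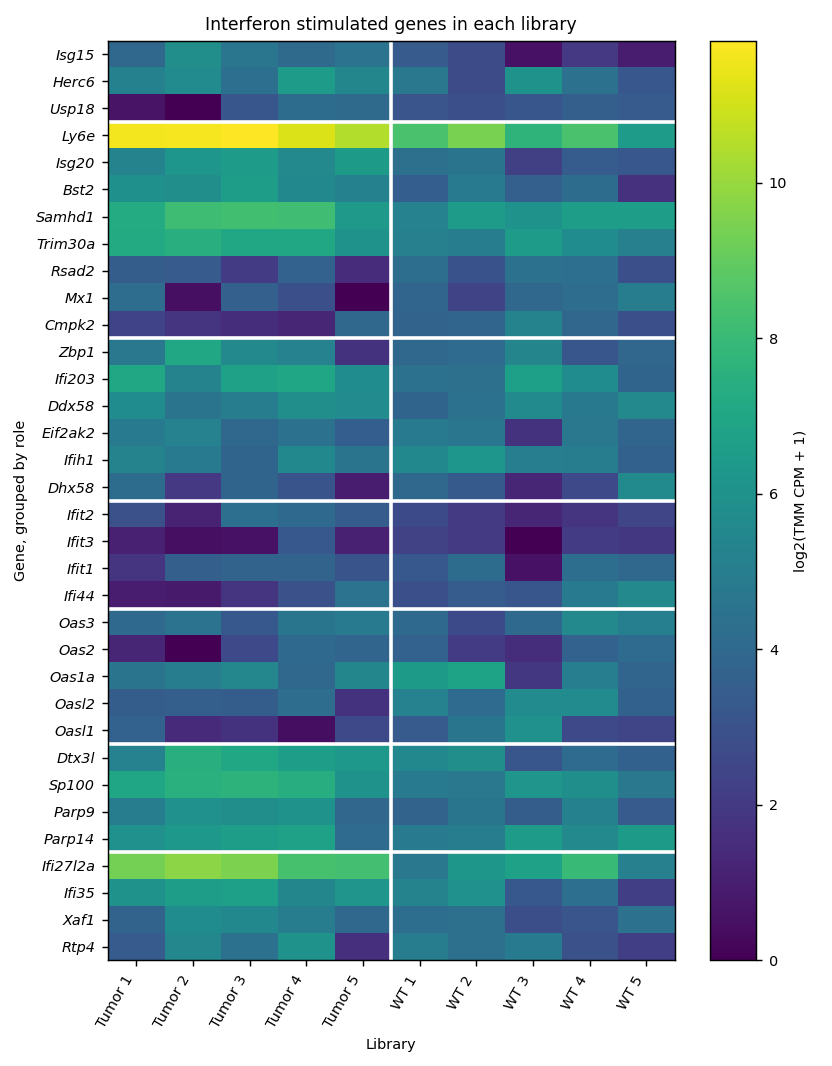
Log2(TMM CPM + 1) of each gene (rows, grouped by role) in each library (columns, Tumor left, WT right). Ly6e and Ifi27l2a are the brightest, and Usp18, Mx1, Oas2 and Ifit3 have libraries at 0.

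Promoter sequences from RefSeq (GRCm38.p6, the same build as mm10) were found for 24 of the 34 members, each 250 bases before to 50 after a transcript start. An ISRE-type motif (GAAA, any 2 bases, then GAAA, on either strand) occurred in 12 of these 24 genes, 50%, against 3.99% of 27025 genes in the same table. A GAS-type motif (TTCNNNGAA, which reads the same on both strands, and which can share bases with the first) occurred in 7, 29.2%, against 9.55%. The 12 members with an ISRE-type match had log2 fold changes from -0.95 to 2.73 with a median of 0.034, and 6 were positive. The 12 without a match had values from -2.27 to 2.38 with a median of 1.29, and 8 were positive. A match describes the letters in the window and is no measure of binding. Zbp1, Oas2, Usp18, Dhx58, Ifi27l2a, Ly6e, Rtp4, Parp14, Parp9 and Mx1 had no entry. The windows shown are those of the non-overlapping members with an entry, of Oas1a, highest in the epithelium-rich libraries, and of Oasl1, the most negative member with all libraries. They are written 5′ to 3′ along the gene, with matches to either motif in capitals. Isg15 (chr4:156200769-156201068, minus strand) has 3 overlapping ISRE-type matches from 78 to 57 bases before the start, Bst2 (chr8:71537423-71537722, minus strand) has 2, joined to a GAS-type match, and Isg20 (chr7:78913174-78913473, plus strand) has a GAS-type match in the first of its 3 windows. Oas1a (chr5:120907476-120907775, minus strand) has 2 ISRE-type matches just before the start and a GAS-type match further upstream. Oasl1 (chr5:114922990-114923289, plus strand) has no match to these letters.
Isg15: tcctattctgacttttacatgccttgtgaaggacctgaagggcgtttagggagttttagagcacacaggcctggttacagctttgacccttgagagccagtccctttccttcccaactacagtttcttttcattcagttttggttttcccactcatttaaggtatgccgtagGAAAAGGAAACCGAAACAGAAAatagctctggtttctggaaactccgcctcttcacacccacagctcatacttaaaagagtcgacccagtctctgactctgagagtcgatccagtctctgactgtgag
Bst2: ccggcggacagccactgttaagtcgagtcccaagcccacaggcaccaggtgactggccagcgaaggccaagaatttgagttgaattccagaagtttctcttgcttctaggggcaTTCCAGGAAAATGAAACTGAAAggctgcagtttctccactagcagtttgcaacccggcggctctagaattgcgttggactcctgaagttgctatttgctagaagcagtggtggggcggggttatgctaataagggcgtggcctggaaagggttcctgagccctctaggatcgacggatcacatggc
Isg20: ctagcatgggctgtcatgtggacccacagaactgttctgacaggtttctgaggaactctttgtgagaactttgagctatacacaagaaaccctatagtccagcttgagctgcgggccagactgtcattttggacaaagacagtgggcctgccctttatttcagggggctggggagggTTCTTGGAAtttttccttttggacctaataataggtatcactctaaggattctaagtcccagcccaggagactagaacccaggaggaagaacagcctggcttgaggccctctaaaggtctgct
Oas1a: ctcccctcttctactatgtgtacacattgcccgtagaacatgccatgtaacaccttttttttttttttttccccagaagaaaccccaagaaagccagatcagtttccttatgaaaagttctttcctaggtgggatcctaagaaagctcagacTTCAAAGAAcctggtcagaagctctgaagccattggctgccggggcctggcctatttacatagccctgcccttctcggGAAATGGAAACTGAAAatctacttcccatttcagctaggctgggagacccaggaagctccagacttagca
Oasl1: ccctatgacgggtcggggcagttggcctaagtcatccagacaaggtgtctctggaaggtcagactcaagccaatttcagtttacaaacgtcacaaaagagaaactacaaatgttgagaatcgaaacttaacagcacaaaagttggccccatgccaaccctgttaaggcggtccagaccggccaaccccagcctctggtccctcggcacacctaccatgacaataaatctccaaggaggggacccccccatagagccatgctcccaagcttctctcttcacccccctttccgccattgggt

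Ly6e encodes a lipid-anchored surface protein of lymphocytes that alters virus entry (ENSMUSG00000022587, chromosome 15, 74955051 to 74959905). It stood at 3133, 3272, 3632, 2389 and 1396 CPM across the Tumor libraries, against 340.2, 692, 206, 339 and 87.5 CPM across the WT libraries. Every Tumor library exceeded the highest WT library, WT replicate 2. The log2 fold change of 3.05 ± 0.79 (SE) did not pass (adjusted p = 0.0577), and it was -0.45 ± 1.13 on pan-T scaling. It passed with DESeq2 (2.93 ± 0.55, adjusted p = 2.33e-05), with limma voom (3.36 ± 0.65, 0.00868) and with either set of WT libraries left out: 3.71 ± 0.82 (0.00903) without the epithelium-rich replicates 1 and 2, and 2.39 ± 0.49 (0.0022) without replicates 3, 4 and 5. Among the single WT libraries, leaving out replicate 2 or 5 also made it pass (0.0314 and 0.0284).

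Ifi27l2a encodes a small hydrophobic protein of mitochondrial membranes (ENSMUSG00000079017, chromosome 12, 103442167 to 103443680). Its level was 653, 872, 719.6, 336 and 317 CPM across the Tumor libraries, against 25.97, 76.7, 109, 246 and 34.9 CPM across the WT libraries. WT replicate 4 came close to the lowest Tumor library, and the other WT libraries lay well below. The log2 fold change was 2.56 ± 0.74 (adjusted p = 0.0921), and -0.26 ± 0.79 on pan-T scaling. It passed without WT replicate 4 (3.23 ± 0.79, 0.042), with DESeq2 (2.33, 0.00906) and with limma voom (2.92, 0.0191). Without WT replicates 3, 4 and 5 it was 3.45 ± 0.59 (0.000303).

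Isg20, the member that passed, encodes an exonuclease that degrades single-stranded RNA (ENSMUSG00000039236, chromosome 7, 78913424 to 78920396). It stood at 38.2, 74.2, 91.4, 45.8 and 85.1 CPM across the Tumor libraries, against 19.7, 22.2, 3.76, 9.83 and 8.16 CPM across the WT libraries. The highest WT library, replicate 2, lay below the lowest Tumor library, replicate 1. It rose by 2.38 ± 0.56 log2 units (edgeR quasi-likelihood test, adjusted p = 0.0376), and was -1.32 ± 0.89 on pan-T scaling (adjusted p = 0.153). Of 10 fits that each left out 1 library, the call held in 1 (without WT replicate 2, adjusted p = 0.0249). In the other 9 the log2 fold change was still 2.16 to 2.56 but the adjusted p lay between 0.0552 and 0.116. Without WT replicates 3, 4 and 5 it was 1.66 ± 0.55 and did not pass (0.0972), and without WT replicates 1 and 2 it was 3.21 ± 0.65 (0.00558).

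Isg15 encodes the ubiquitin-like protein that gives the ISG15 system its name (ENSMUSG00000035692, chromosome 4, 156199424 to 156200818). It was measured at 15.2, 56.4, 23.7, 16.2 and 22.03 CPM across the Tumor libraries, against 9.59, 5.53, 0.469, 2.91 and 0.907 CPM across the WT libraries. Behind these values are 54 to 146 reads in each Tumor library but 1 to 41 in WT, and the groups did not overlap. The log2 fold change was 2.73 ± 0.81 (adjusted p = 0.104), -1.199 ± 1.12 on pan-T scaling, and it passed with DESeq2 (0.00844) and without WT replicates 1 and 2 (4.15 ± 1.03, 0.016). The other genes of that system did not pass. Herc6, the main ligase that attaches ISG15 in mouse, had 0.95 ± 0.64 (adjusted p = 0.466). Usp18, the protease that removes ISG15 and also restrains Ifnar2 signalling, had -0.019 ± 0.998 (adjusted p = 0.994), with 98, 69 and 49 reads in Tumor replicates 4, 5 and 3 but 2 and 0 in replicates 1 and 2. A count of 0 in Tumor replicate 2 allows up to 1.24 CPM (3 reads, counting error only), against 6.5 to 10.9 CPM in WT. Per length, these WT values were 0.682 to 1.91 times those of olfactory and vomeronasal receptor genes in the same libraries, a background described below.

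Bst2, also called tetherin, holds budding virions on the cell surface (ENSMUSG00000046718, chromosome 8, 71534255 to 71537456). Its values were 60.4, 56.4, 94.96, 45.6 and 36.02 CPM across the Tumor libraries, against 10.8, 28.5, 11.3, 17.1 and 2.27 CPM across the WT libraries. The groups did not overlap, WT replicate 2 being nearest to Tumor. The log2 fold change was 2.06 ± 0.59 (adjusted p = 0.0914), and -1.28 ± 0.87 on pan-T scaling, and it passed with DESeq2, without WT replicate 2 and without WT replicates 1 and 2 (adjusted p = 0.0309, 0.0442 and 0.0275).

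**Figure D3:**
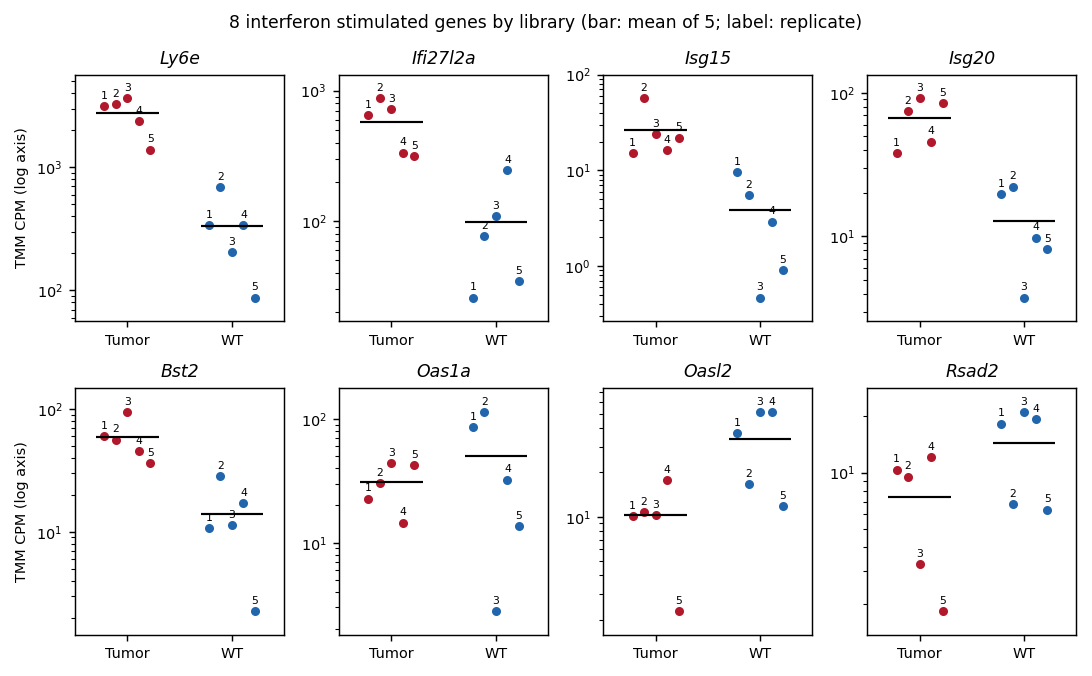
TMM CPM (log axis) of 8 genes in each library, Tumor in red and WT in blue, numbered by replicate, with the mean of 5 as a bar. The first 5 panels show groups that do not overlap on TMM, with positive fold changes that turn negative on pan-T scaling. Oas1a, Oasl2 and Rsad2 overlap, and for Oas1a WT replicates 1 and 2 stand above all others.

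The other virus life cycle inhibitors divided by level. Samhd1, which hydrolyses deoxynucleotides, and Trim30a, a TRIM protein that dampens Toll-like receptor signalling, were at 24.2 ± 10.9 CPM per kilobase in Tumor and 8.53 ± 2.85 in WT, and 31.9 ± 9.51 CPM per kilobase in Tumor and 11.96 ± 6.22 in WT. Their log2 fold changes of 1.505 ± 0.58 and 1.41 ± 0.52 did not pass (adjusted p = 0.212 and 0.194). Samhd1 stood at 80.1 CPM in Tumor replicate 5, within the WT range of 37.4 to 98.6 CPM, and at 152 to 306 CPM in the other 4 Tumor libraries. By contrast Rsad2 (viperin, an inhibitor of viral RNA synthesis), its chromosomal neighbour Cmpk2 (a mitochondrial nucleotide kinase) and Mx1 (a GTPase that traps viral nucleocapsids) had negative values. Rsad2 stood at 10.4, 9.53, 3.25, 12.1 and 1.84 CPM across the Tumor libraries, against 18.3, 6.77, 21.1, 19.3 and 6.35 CPM across the WT libraries, and its groups overlapped. The log2 fold changes were -0.95 ± 0.78 for Rsad2, -1.17 ± 1.01 for Mx1 and -1.78 ± 0.85 for Cmpk2 (adjusted p = 0.559, 0.578 and 0.312). Mx1 had 64, 1, 70, 36 and 0 reads in the Tumor libraries and 32 to 70 in each WT library, so 3 Tumor libraries lay within the WT range and 2 near 0. C57BL/6 mice carry a defective Mx1 allele. Cmpk2 was below 5 CPM in Tumor replicates 1 to 4 and at 14.2 CPM in replicate 5, against 6.35 to 37.6 CPM in WT.

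The OAS enzymes make a short oligoadenylate that activates the nuclease RNase L, and none of the 5 had a positive value. Oas3, Oas2 and Oas1a lay at -0.26 ± 0.64, -0.36 ± 1.02 and -0.70 ± 0.70. Oasl2 and Oasl1 lay at -1.71 ± 0.65 and -2.27 ± 0.97, and edgeR adjusted p ran from 0.210 to 0.886. Oas2 held 0 to 15.4 CPM in Tumor and 1.88 to 16.3 CPM in WT. At an unadjusted p below 0.05, 2 of the 5 (Oasl2 and Oasl1) were lower, as were 8.31% of all genes. Oasl2 stood at 10.1, 10.8, 10.2, 17.7 and 2.29 CPM across the Tumor libraries, against 37.2, 16.6, 51.2, 51.7 and 11.8 CPM across the WT libraries. WT replicates 1, 3 and 4 exceeded all Tumor libraries, while replicates 2 and 5 lay within the Tumor range. DESeq2 called Oasl2 lower (-1.92 ± 0.66, adjusted p = 0.0449), in a fit that called 4.53% of genes lower. For Oasl1, which lacks synthase activity in mouse and restrains Irf7 translation, 1 library set the WT mean: replicate 3 held 61.5 CPM (131 reads) and the other 4 held 4.54 to 23.1. The Tumor libraries held 0.355 to 12.1 CPM. Without WT replicate 3 Oasl1 stood at -1.300 ± 0.99, and Ifi44 (-1.74) and Oasl2 (-1.49) were then more negative.

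Oas1a was highest in the libraries with most epithelial transcript. Its values were 22.8, 30.3, 43.8, 14.6 and 42.7 CPM across the Tumor libraries, against 86.1, 114, 2.82, 32.4 and 13.6 CPM across the WT libraries. The 2 WT libraries rich in epithelial transcripts were the highest of all 10, WT replicates 3 and 5 lay below every Tumor library, and WT replicate 4 within the Tumor range. With all libraries the log2 fold change was -0.70 ± 0.70 (adjusted p = 0.636). It turned to 0.90 ± 0.76 without WT replicates 1 and 2 (0.517), and it was called lower without WT replicates 3, 4 and 5 (-1.72 ± 0.49, 0.0358), in a fit that called 2.09% of genes lower. Oas1a has close relatives in the same locus, so reads may be shared among them. The part of epithelial RNA in the Oas1a level was not tested.

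Of the IFIT genes, whose products bind viral RNA ends, Ifit3 and Ifit2 had the lowest levels per length of all members, averaged over all 10 libraries. In Tumor alone Ifi44 was lower (1.06 CPM per kilobase). Mean levels were 3.46 ± 1.62 CPM per kilobase in Tumor and 4.44 ± 2.79 in WT for Ifit1, 2.66 ± 1.79 CPM per kilobase in Tumor and 0.861 ± 0.403 in WT for Ifit2 and 1.34 ± 1.99 CPM per kilobase in Tumor and 1.49 ± 0.875 in WT for Ifit3. Ifit2 stood at 6.74, 1.24, 19.2, 15.3 and 9.87 CPM across the Tumor libraries, against 5.38, 3.04, 1.41, 2.55 and 4.54 CPM across the WT libraries. The groups overlapped, and the fold change was 1.62 ± 0.88 (adjusted p = 0.371). Ifit1 and Ifit3 had -0.36 ± 0.84 and -0.15 ± 1.06. For Ifit3 the Tumor libraries held 4, 1, 3, 48 and 5 reads against 17, 22, 0, 9 and 6 for WT, so Tumor replicate 4 held most of the Tumor reads. The 0 in WT replicate 3 allows up to 1.41 CPM. Ifi44, a cytoplasmic protein induced with this family, had -1.59 ± 0.93 (adjusted p = 0.404), with 21.6 CPM in Tumor replicate 5 and 0.829 to 6.57 CPM in the other 4, against 6.32 to 45.8 in WT.

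The sensors of nucleic acid showed no call and values on both sides of 0. Zbp1, a sensor of Z-form nucleic acid, had 1.37 ± 0.74, and Ifi203, a DNA-binding PYHIN protein, 1.18 ± 0.61. Ddx58 (RIG-I) and Ifih1 (MDA5), the receptors for viral RNA, had 0.47 ± 0.52 and -0.39 ± 0.55, Eif2ak2 (PKR, a kinase that halts translation on double-stranded RNA) 0.21 ± 0.66, and Dhx58 (LGP2, a regulator of both receptors) -0.95 ± 0.93. Adjusted p ran from 0.349 to 0.896. Zbp1 varied widely among Tumor libraries, from 2.29 CPM in replicate 5 to 133 CPM in replicate 2, a range that spans that of WT (8.01 to 41.3). Ifi203 shares its locus with related genes and overlaps Mndal on the same strand, so its count is uncertain.

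The ADP-ribosylation and nuclear body genes were all positive on TMM, without a call, and all negative on pan-T scaling. Dtx3l and Parp9, whose proteins form a ubiquitin ligase complex, are overlapping neighbours on opposite strands of chromosome 16. They had 1.89 ± 0.61 and 1.31 ± 0.58 (adjusted p = 0.139 and 0.275). Where strand is not counted, reads of the overlap cannot be assigned to one of them. Sp100, a component of nuclear bodies, had 1.81 ± 0.55 (adjusted p = 0.109), at 147 ± 54.5 CPM in Tumor and 41.9 ± 21.1 CPM in WT, and 4 of 5 Tumor libraries exceeded the highest WT library. Parp14 had 0.33 ± 0.55 (adjusted p = 0.798). Of the remaining members, Ifi35, which was at 43.8 ± 13.8 CPM per kilobase in Tumor and 15.2 ± 13.97 in WT, had 1.51 ± 0.63 (adjusted p = 0.247), and the apoptosis regulator Xaf1 and the receptor chaperone Rtp4 had 1.07 ± 0.62 and 0.68 ± 0.78. Ifi35 stood at 37.9 and 62.5 CPM in WT replicates 1 and 2, at 3.63 to 18.9 CPM in the other 3, and at 42.4 to 101 CPM for Tumor.

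Scatter between libraries was wide in both groups. Over members, the coefficient of variation of TMM CPM was 29.9 to 148% for Tumor (median 49.4%) and 20.1 to 119.7% for WT (median 65.5%). Tumor replicate 5 was the lowest Tumor library for 15 of the 34 members and the highest for 3, and Tumor replicate 4 was the highest for 12. In WT, replicates 3 and 5 were each the lowest for 11 members, and replicate 3 was also the highest for 10. Tumor replicate 5 also had the largest sums of macrophage and neutrophil markers (6070 and 1743 CPM), whose part in these ranks was not tested.

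Many members were near the level of genes that T cells are not known to use. Read density over 1464 olfactory and vomeronasal receptor genes came to 1.05 to 2.02 TMM CPM per kilobase for Tumor and 1.22 to 4.19 for WT. At or below the receptor level of their own library were 3 to 9 members in each Tumor library, 5, 5 and 7 in WT replicates 1, 2 and 4, and 17 and 18 in WT replicates 3 and 5. Ly6e and Ifi27l2a were above 5 times that level in all 10 libraries, and Samhd1 and Trim30a above the level itself in all 10. In every Tumor library 8 members exceeded 5 times the level (Ly6e, Isg15, Ifi27l2a, Isg20, Bst2, Ifi35, Trim30a and Oas1a). The 12 members that exceeded it in no library were Ifit2, Ifit3, Eif2ak2, Usp18, Oas2, Oas3, Dhx58, Rsad2, Mx1, Ifi44, Oasl2 and Cmpk2. Ratios to the receptor level for these 12 ran from 0 (among them Usp18 in Tumor replicate 2) to 4.64 (Ifit2 in Tumor replicate 3). Whether their reads reflect a low transcript level or this background was not tested. Of the 12, 10 had negative log2 fold changes in the same comparison. With a background in proportion to gene length subtracted from each library, 26 members could be tested, and edgeR called 0 genes (0% of those tested), members or others (1 member higher and 1 lower at an unadjusted p below 0.05).

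**Figure D4:**
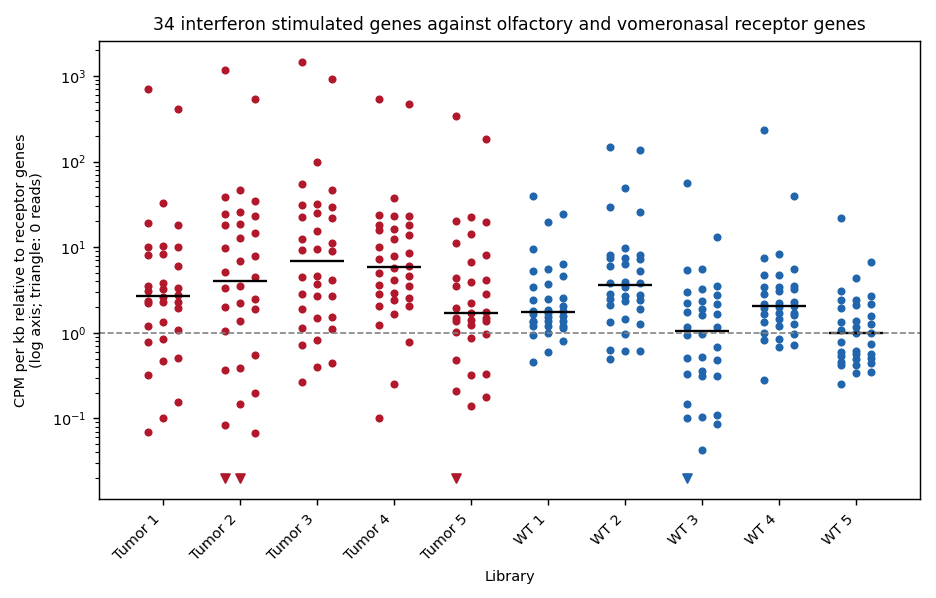
CPM per kilobase of each of the 34 genes divided by that of olfactory and vomeronasal receptor genes in the same library (log axis, triangles for 0 reads, bar for the median, dashed line at equal level). The medians lie at 1.72 to 6.83 in Tumor and 0.993 to 3.64 in WT, with WT replicates 3 and 5 close to the line.

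The ligands and receptors of the pathway gave no calls. Of 11 interferon ligand genes 1 passed the filter on low counts (Ifnl2, 0.018 ± 0.999), and Ifnb1 had means of 0.135 ± 0.1298 CPM in Tumor and 0.625 ± 0.757 CPM in WT. Ifng, the gene of interferon gamma, was not tested and rested on 1 library in each group, with 403 reads (71.5 CPM) in Tumor replicate 4, 117 reads (54.9 CPM) in WT replicate 3 and 0 to 16 reads in the other 8. Of 6 receptor chains none was called (3 higher at an unadjusted p below 0.05, 0 lower), with 1.51 ± 0.55 for Ifnar1 and 1.23 ± 0.76 for Ifnar2 (adjusted p = 0.184 and 0.428). Among the transcription factors, Stat2 had -0.81 ± 0.71 and Irf9 0.64 ± 0.47, and neither passed (adjusted p = 0.583 and 0.511). Irf7, the factor that amplifies type I interferon production and is itself interferon stimulated, had -0.85 ± 0.64 (adjusted p = 0.523).

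Inhibitors of cytokine signalling were called higher in 2 of 6 cases (1.37% of all genes were). Socs1, which blocks Jak kinases, rose by 3.49 ± 0.62 (adjusted p = 0.00842), with 49.5 ± 24.8 CPM in Tumor and 4.33 ± 1.73 CPM in WT (SD, n = 5), and Socs3 rose by 2.68 ± 0.59 (0.0282). Among 8 tested upstream adaptors Tmem173, which encodes the DNA-response adaptor STING, rose by 3.86 ± 0.68 (0.00842), while Mavs, the adaptor of the RNA sensors, had 0.31 ± 0.73. On pan-T scaling Socs1, Socs3 and Tmem173 had -0.13 ± 0.999, -0.38 ± 0.83 and 0.17 ± 0.81, and none passed.

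The GTPases induced mainly by interferon gamma, measured in the same fit, included 5 calls. Of 16 tested, 5 were higher and none lower (0 lower at an unadjusted p below 0.05), where 1.37% and 0.219% of all genes were called, with a median log2 fold change of 2.33 against 0.58 for members. All 16 were positive on TMM, and their median was -0.95 on pan-T scaling against -2.95 for members. Ifi47, Iigp1 and Igtp, GTPases that attack vacuoles of intracellular microbes, rose by 4.27 ± 0.58, 3.95 ± 0.77 and 3.54 ± 0.65 (adjusted p = 0.00341, 0.0153 and 0.0106). Gbp8 and Irgm2 rose by 2.402 ± 0.54 and 2.52 ± 0.61 (0.0297 and 0.0413). On pan-T scaling Ifi47, Iigp1, Igtp, Gbp8 and Irgm2 had 0.71 ± 0.86, 0.68 ± 1.05, 0.26 ± 0.76, -0.85 ± 0.86 and -0.94 ± 0.88, and none passed. The medians are descriptions of the lists, and their difference was not tested.

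**Figure D5:**
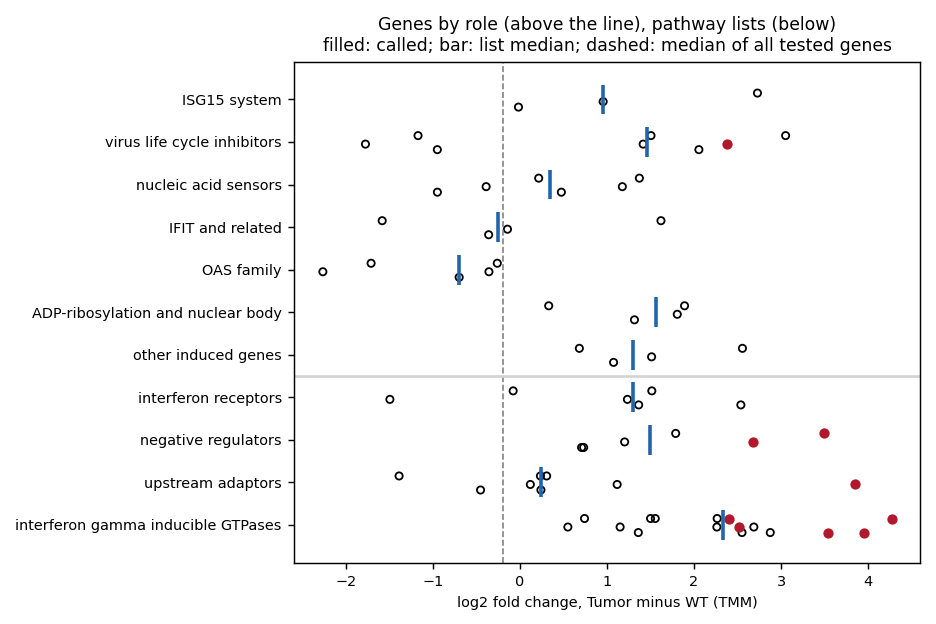
Log2 fold change (TMM) of each gene by role (above the line) and in other interferon pathway lists (below it), with the list median as a blue bar, called genes filled in red and the median of all tested genes (-0.20) dashed. The OAS median lies lowest at -0.70 and that of the interferon gamma inducible GTPases highest at 2.33; on pan-T scaling both medians are negative.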

How the data were processed

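Smart-seq2 libraries of sorted colon Tregs (5 Tumor, 5 WT, grouped by their titles) were compared using the deposited raw read counts of 54532 genes, with whole numbers that were not normalized. Per the submitters' processing notes, the build was mm10 and the tools were HISAT2 2.0.5 and featureCounts 1.5.0-p3. For the annotation release, strand setting and multi-mapped reads, the choice is not given in the sources used here. Gene lengths and coordinates are those of the authors' deposited table.

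In R 4.3.3, edgeR 4.0.16 was run on all genes passing filterByExpr (minimum count 10, minimum total 15), with TMM scaling, a robust quasi-likelihood F test with group as the only term, and Benjamini-Hochberg adjustment (calls at 0.05). The common dispersion was 0.742. Standard errors are the log2 fold change divided by the root of F. CPM values are TMM scaled unless stated. On simulated counts for this comparison (21414 genes) the share recovered was 0% at a 2-fold change, 6.06% at 4-fold and 77.6% at 16-fold, so a gene that was not called may differ several fold. The changed genes were drawn from those with a mean above 5 CPM, so these shares do not cover members at lower levels, such as Ifit3. Amplification copies count as reads, as no molecular identifiers are recorded, so count limits cover counting error only. Alternatives used DESeq2 1.42.0 and limma 3.58.1. Counts of all 45 pairs of libraries differed by more than sampling noise (chi-square at least 29.8 for each degree of freedom). The members, gene lists, roles and alternatives were chosen with earlier results of these data known. Values were given for all members that passed, the 5 highest and 5 lowest per kilobase, those with non-overlapping groups and the 3 largest and 3 most negative fold changes. For Ifi35, Trim30a, Oas2, Ifi44, Cmpk2 and Oasl1 among these, not every library is listed. Oas1a, Samhd1, Sp100 and other members were described after their values were seen. Ifit1, Ifit3, Oas1a, Trim30a, Ifi203 and Ifi27l2a have close relatives and are uncertain where reads are shared. In position, 14 members are overlapped by another gene, 8 of them by one with at least 1 read for every 10 of the member. Besides Dtx3l, Parp9 and Ifi203, these include Rtp4 (Masp1 and Gm45338) and Eif2ak2 (Gm26637), whose counts are likewise uncertain. The other marker lists (dendritic, B and plasma, neutrophil, NK, CD8 T, stromal cells) held no called gene. Not every gene of the pathway lists is described, and 1 result of these lists is not reported here.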

Additional observations from a re-analysis of the deposited data

Results flagged for a closer look

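Within groups of 5 libraries, 1 library stood far from the other 4 on the log2 CPM scale in 6 cases among 68 checked (34 genes in 2 groups), where chance alone marks about 1 in 20. Tumor replicate 5 was low for Trim30a (67.5 CPM, the next Tumor library at 133), for Parp14 (16.5, next 62.9) and for Oasl2 (2.29, next 10.1). Tumor replicate 4 was high for Ifit3 (8.52 CPM, next 1.15). WT replicate 3 was low for Ifit3 (0 CPM, next 2.72) and for Ifit1 (0.469, next 8.42). Ifit3 rests on at most 48 reads in any library.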

How the results depend on the processing

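Over 661 alternative values of single members outside pan-T scaling, 588 kept direction and side of the threshold, 13 lost the call, 29 gained one and 31 changed sign; the cause was not tested. The count of all called genes (340) was 19491 on pan-T scaling, 1651 with DESeq2, 820 without a filter, 1993 without WT replicates 1 and 2, 1325 without WT replicates 3, 4 and 5, 0 after background subtraction (edgeR) and 65 to 417 without single libraries. Members called higher (1) numbered 2 without composition factors, with limma voom and at 10 CPM in 5 libraries, 4 without a filter, 6 with DESeq2 and without WT replicates 1 and 2, 5 without WT replicates 3, 4 and 5, 0 on pan-T scaling and after background subtraction, and 0 to 4 without single libraries. Members called lower (0) numbered 27 on pan-T scaling and 1 with DESeq2 and without WT replicates 3, 4 and 5. The member median (0.58) was -2.95 on pan-T scaling. The share of calls that were higher was 86.2% on TMM, 0.0975% on pan-T scaling and 41.3% with DESeq2. With the replicate number as a block, edgeR called 141 genes and 0 members, with Isg20 at 2.52 ± 0.67 (adjusted p = 0.107). Over all tested genes, same-numbered libraries did not deviate together (correlations -0.126 to 0.0381). The labels give no pairing. These correlations cannot settle whether equal numbers share an animal or a batch, as library composition also moves them.

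Values that changed sign on pan-T scaling were Ly6e -0.45, Isg15 -1.199, Ifi27l2a -0.26, Isg20 -1.32, Bst2 -1.28, Dtx3l -1.91, Sp100 -1.48, Ifit2 -2.201, Ifi35 -2.13, Samhd1 -1.93, Trim30a -1.88, Zbp1 -2.15, Parp9 -1.97, Ifi203 -1.82, Xaf1 -2.81, Herc6 -2.27, Rtp4 -3.09, Ddx58 -2.78, Parp14 -3.17 and Eif2ak2 -3.47. Parp14 also turned without composition factors (-0.11), at 10 CPM in 5 libraries (-0.13), after background subtraction (-0.24) and without WT replicates 1 and 2 (-0.015). Eif2ak2 turned at 10 CPM (-0.013), after subtraction (-0.12) and without WT replicates 3, 4 and 5 (-0.24), where Usp18 (0.24) and Oas3 (0.96) turned too. Without WT replicates 1 and 2, Ifit3 (0.25), Ifih1 (0.26) and Oas1a (0.90) became positive, as did Oas3 with limma voom (0.16) and Usp18 (0.16) and Ifit3 (0.044) without a filter. Without single libraries, Usp18 ranged from -0.43 to 0.30, Ifit3 from -1.66 to 0.16, Eif2ak2 from -0.049 to 0.43, Ifih1 from -0.62 to 0.033, Oas3 from -0.52 to 0.17 and Dhx58 from -1.36 to 0.081. The depth limits genes under about 10 CPM, more so in the smaller libraries. A count of 3 reads came to 0.415 CPM in WT replicate 2 and 1.41 CPM in WT replicate 3, and single reads move values near that level.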

Other observations

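Close relatives of several members, chosen after their values were seen, had values of their own. Ifi27l2b, next to Ifi27l2a, had 482 and 1052 reads in WT replicates 1 and 2, the libraries rich in epithelial transcripts, and 1 to 75 in each of the other 8, and a fold change on the log2 scale of -2.73 ± 1.19 (edgeR adjusted p = 0.278) where Ifi27l2a had 2.56 ± 0.74. Oas1g was also highest in WT replicates 1 and 2, at 44.7 and 73.5 CPM (191 and 532 reads). WT replicate 3, poor in epithelial transcripts, followed at 28.2 CPM (60 reads), and the remaining libraries held 0 to 6.88 CPM. The Oas1g fold change was -3.23 ± 0.96 (edgeR adjusted p = 0.104). Of the other Oas1 genes, Oas1e and Oas1f also had fewer raw reads over Tumor than WT (142 against 322 and 52 against 80). Oas1c, Oas1d, Oas1b and Oas1h had more (256 against 129, 145 against 60, 147 against 55 and 109 against 83). In the cluster of Ifi203 on chromosome 1, Ifi206 rose by 3.09 ± 0.76 (adjusted p = 0.0439) with 36 to 338 reads in the Tumor libraries against 2 to 21 in WT, and it was -0.55 ± 1.07 on pan-T scaling. Ifi209 and Mndal, in the same cluster, had 1.75 ± 0.50 and 1.52 ± 0.66 (0.0916 and 0.265), and for all 3 of these genes the groups did not overlap in TMM CPM, with Tumor on top, as for 4.38% of all genes. For the other relatives of Ifi203, reads over the Tumor libraries against those over WT, not scaled for depth, went both ways. Ifi205, Ifi204, Ifi207 and Ifi202b had fewer (62 against 225, 79 against 171, 69 against 92 and 51 against 74). Ifi213, Ifi214, Ifi208, Ifi211 and Ifi203-ps had more (442 against 148, 378 against 199, 322 against 207, 139 against 93 and 100 against 68). The difference between each gene and its relative was not tested.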
